A study of Homo sapiens with 4 samples.

Results

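Hypoxia-inducible factors (HIFs) were followed through 10 genes in A549 cells, an established human lung adenocarcinoma line, after UHRF1 was targeted. The 10 genes are HIF1A, EPAS1, VEGFA, BHLHE40, CA9, NDRG1, ADM, ANGPTL4, EGLN3 and BNIP3, taken by Ensembl identifier through GENCODE release 29 from a count table of 58735 genes. All 10 had counts in all 4 libraries and passed the filter on low counts. Of these genes, 8 are known HIF targets, while HIF1A and EPAS1 encode the oxygen-regulated alpha subunits themselves, so the set is described as HIF alpha genes and HIF target genes. RNA-seq compared 2 libraries of A549 given a CRISPR guide against UHRF1 (UHRF1 KO) with 2 libraries of A549 given a non-targeting guide (control). Both groups carried the lentiCRISPRv2-hygro vector, were selected with hygromycin and were grown in the same serum-containing medium. The labels name no hypoxia treatment and no oxygen level, and they do not say if cells were a pool or a clone, or how long after infection RNA was taken. The labels do not say that replicate libraries are separate cultures. The p-values therefore measure only how far these libraries scatter, which may be technical.

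HIF is a dimer of an alpha subunit (HIF-1 alpha from HIF1A, HIF-2 alpha from EPAS1) and the constant partner ARNT. When oxygen is present, prolyl hydroxylases of the EGLN family mark the alpha protein for the VHL ubiquitin ligase and it is destroyed, so HIF activity is set mainly by protein stability and not by the level of alpha mRNA. When oxygen is low, the dimer binds a short core motif and raises genes for angiogenesis, pH control, metabolism and mitophagy. UHRF1 recognises the hemimethylated sites that replication leaves and brings DNMT1 to them, which keeps CpG methylation through cell division.

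The core motif was looked for in promoter windows from RefSeq (GRCh38.p14), each running from 250 bases before to 50 bases after a gene's start. Windows were found for 8 of the 10 genes, with a pair of windows for HIF1A. The letters ACGTG or GCGTG on either strand were found in 7 of the 9 windows, in as many genes, against 48.4% of all 35116 windows of the same length. Matches that share bases, as at the palindrome CACGTG, were counted as 1 site. BNIP3 had 5 sites and BHLHE40 had 3, while HIF1A, EPAS1, CA9, ADM and ANGPTL4 had 1 each and EGLN3 had 0. At least 3 sites were found in 7.5% of all windows. A match is a run of letters and not a measured binding site. The 4 windows below are shown up to the start because they belong to the largest rises (ANGPTL4 and BHLHE40), to the richest in sites (BNIP3) and to the gene whose site lies nearest the start (CA9). Capitals mark the core on either strand, and each is written 5′ to 3′ on the strand of its gene. They lie at chr3:4979187-4979436 (plus strand), chr19:8363905-8364154 (plus), chr9:35673678-35673927 (plus) and chr10:131981924-131982173 (minus).
BHLHE40: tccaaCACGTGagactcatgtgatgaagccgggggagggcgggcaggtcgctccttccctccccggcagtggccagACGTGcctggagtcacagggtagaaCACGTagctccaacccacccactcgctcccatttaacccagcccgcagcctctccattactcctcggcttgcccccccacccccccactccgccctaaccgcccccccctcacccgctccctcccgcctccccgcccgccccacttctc
ANGPTL4: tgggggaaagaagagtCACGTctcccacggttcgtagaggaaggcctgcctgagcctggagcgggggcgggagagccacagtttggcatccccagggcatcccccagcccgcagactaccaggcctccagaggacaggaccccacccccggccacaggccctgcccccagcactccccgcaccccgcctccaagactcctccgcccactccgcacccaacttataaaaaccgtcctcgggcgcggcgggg
CA9: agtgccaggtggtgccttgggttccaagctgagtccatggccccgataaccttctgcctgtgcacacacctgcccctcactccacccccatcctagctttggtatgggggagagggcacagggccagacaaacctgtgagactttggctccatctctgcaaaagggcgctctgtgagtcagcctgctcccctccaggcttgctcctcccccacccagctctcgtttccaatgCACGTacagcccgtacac
BNIP3: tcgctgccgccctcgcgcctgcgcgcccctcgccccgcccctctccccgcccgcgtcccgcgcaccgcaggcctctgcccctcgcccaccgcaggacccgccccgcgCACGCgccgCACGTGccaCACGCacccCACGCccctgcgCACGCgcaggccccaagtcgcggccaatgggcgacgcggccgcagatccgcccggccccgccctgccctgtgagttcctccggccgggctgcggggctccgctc

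The first base of the CA9 match lay 18 bases before the RefSeq start, and that of the ANGPTL4 match lay 234 bases before it. The windows also differed in CpG dinucleotides, the sites that UHRF1-dependent methylation acts on. BNIP3 had 48 and EPAS1 47, more than in 98.0% and 97.6% of all windows, while CA9 had 7, more than in 36.8%. The counts were 27 in EGLN3, 22 in BHLHE40, 20 in ANGPTL4 and 16 in ADM, and HIF1A had 31 in one window and 3 in the other, against a median of 14 over all windows. Whether the number of CpGs has a part in the changes below was not tested. DNA methylation was not measured in these data.

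**Figure D1:**
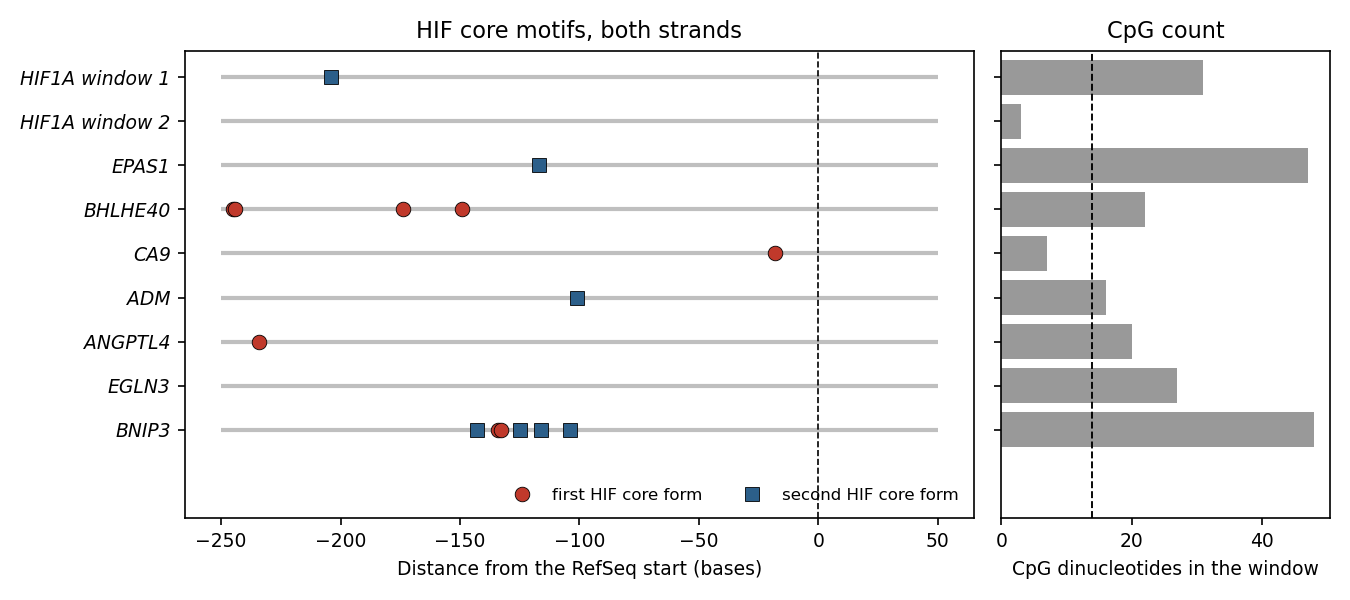
Positions of the HIF core (left, distance of the first base of each match from the RefSeq start in bases, circles and squares for the forms beginning with A and with G) and CpG dinucleotides per window (right, bars from 0, dashed line at the median of 14 over all windows). BNIP3 carries the most sites and the most CpGs, and EGLN3 and the second HIF1A window carry no core.

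Total counts were between 18604598 and 23977168 per library, and levels are CPM, read counts normalised to library size, after TMM scaling, which assumes most genes do not change. UHRF1 itself was at 39.7 ± 0.79 CPM in UHRF1 KO and 98.2 ± 0.90 CPM in control (SD, n = 2), with a log2 fold change (SE) of -1.31 (0.055) and an edgeR adjusted p of 3.92e-20. A guide cuts the gene and may leave its transcript, so this is only a partial check of the labels. Of 6 epithelial markers of the line, all tested, 1 rose and 5 fell, where 32.0% of all genes tested rose and 30.1% fell. EPCAM was at 9.98 CPM in UHRF1 KO and 2.22 CPM in control (log2 fold change 2.16), while KRT8 was at 2108 CPM in UHRF1 KO and 2676 CPM in control, and KRT7, KRT18, KRT19 and CDH1 also fell. Of 16 markers of other cell types, 7 were tested and 6 of these were higher, where 32.0% of all genes tested were. This count is partly fixed by the filter on low counts. COL1A2, PECAM1, PDGFRB and ALB passed it only through the UHRF1 KO libraries, so they could only be called higher. The summed level of the 16 was 59.3 and 62.2 CPM in UHRF1 KO against 8.86 and 9.81 CPM in control. PECAM1, an endothelial marker, was at 29.9 CPM in UHRF1 KO and 0.250 CPM in control, while VWF, of the same cell type, had 11 and 11 counts in UHRF1 KO and 1 and 0 in control, and CDH5 had 3 and 0 in UHRF1 KO and 0 in both controls. The fibroblast marker COL1A1 was at 15.6 CPM in UHRF1 KO and 3.78 CPM in control, and COL1A2, PDGFRB, CD14 and ALB rose as well, ALB losing its call with DESeq2, with a minimum of 1 CPM in 2 libraries and without UHRF1 KO replicate 2 or control replicate 1. ACTA2, the other tested marker, did not rise, at 2.63 CPM in UHRF1 KO and 2.86 CPM in control (log2 fold change -0.11, edgeR adjusted p = 0.704). The lymphocyte markers CD3E and MS4A1 had 0 counts in all 4 libraries. Whether these transcripts have a part in the changes below was not tested, and in bulk RNA fewer cells of a type and less RNA per cell cannot be told apart.

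The comparison asked which transcripts differ when UHRF1 is targeted. Of the 10 genes, 7 rose, where 32.0% of all 17030 genes tested were called higher. These were HIF1A, EPAS1, VEGFA, ADM, ANGPTL4, BHLHE40 and NDRG1, with ADM losing the call and its sign in 1 alternative fit. BNIP3 was called lower, where 30.1% of all genes tested were, and CA9 and EGLN3 did not pass the test. The rises ran from 1.22-fold for HIF1A to 6.45-fold for ANGPTL4, and 2 of the 10 genes rose at least 2-fold, where 15.4% of all genes tested did. The median log2 fold change was 0.46 over the 10 genes and 0.02 over all genes tested. Both UHRF1 KO libraries lay above both controls for the 7 called genes (41.6% of all genes tested) and below them for EGLN3 and BNIP3 (38.4%), and for CA9 the groups overlapped. Together the 10 genes took 0.303% and 0.301% of all counts in the UHRF1 KO libraries, against 0.173% and 0.175% in the controls.

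**Figure D2:**
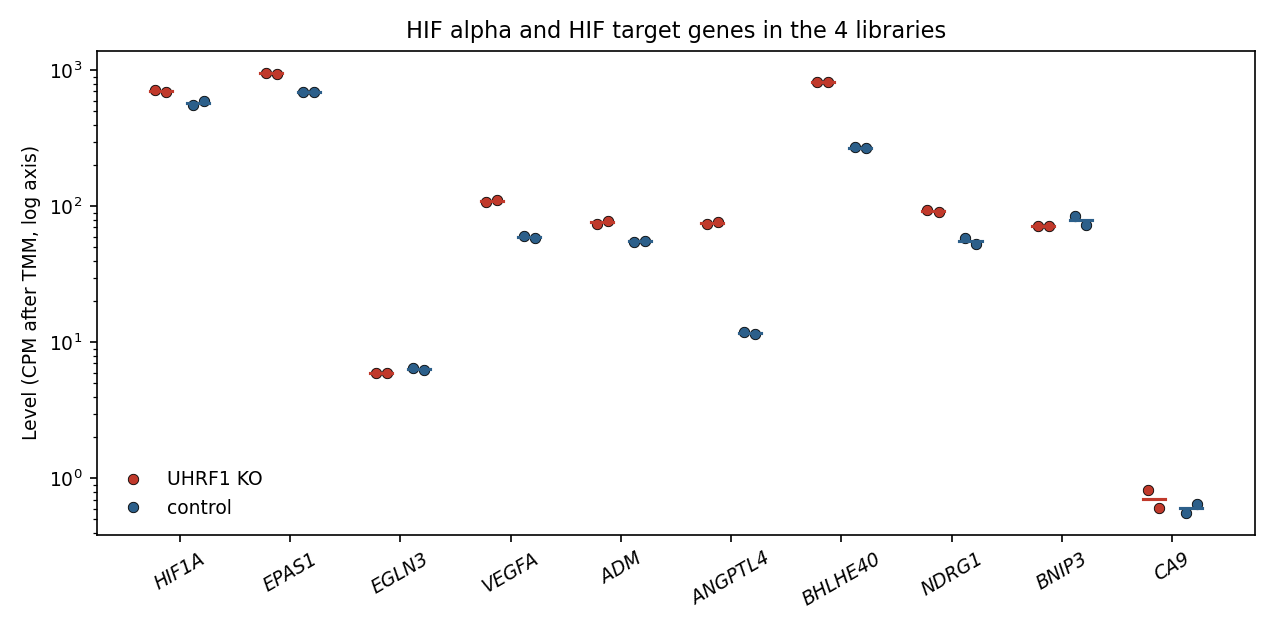
Level of each gene in every library (CPM after TMM, log axis), with UHRF1 KO in red to the left of control in blue, 1 point per library and a line at the mean of 2. The groups are well separated for ANGPTL4 and BHLHE40 and overlap for CA9.

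Both alpha subunit genes were abundant per kilobase of annotated exon, and both rose modestly. HIF1A (ENSG00000100644, chromosome 14, 61695513 to 61748259, plus strand) was at 716.2 and 699.4 CPM in UHRF1 KO and at 557.9 and 597.6 CPM in control. Its log2 fold change was 0.29 (SE 0.035, edgeR adjusted p = 8.5e-09), a 1.22-fold rise. Both UHRF1 KO libraries were above both controls, although the control libraries lay further from each other than the UHRF1 KO libraries did. EPAS1 (ENSG00000116016, chromosome 2, 46293667 to 46386703, plus strand) was at 961.5 and 945.5 CPM in UHRF1 KO and at 699.1 and 693.8 CPM in control. The groups were far apart relative to their spread, with a change of 0.45 on the log2 scale (SE 0.032, edgeR adjusted p = 3.93e-14), a 1.37-fold rise. Per kilobase of annotated exon, the ratio of EPAS1 to HIF1A was 0.947 and 0.954 in UHRF1 KO and 0.884 and 0.819 in control, so the pair stood at similar levels in all libraries. HIF1A is overlapped on the opposite strand by HIF1A-AS1 and HIF1A-AS2. HIF1A-AS2 had 29 and 35 counts in UHRF1 KO against 10 and 10 in control (log2 fold change 1.34, edgeR adjusted p = 0.00477), and since the sources used here do not state a strand setting, its reads cannot be told from those of HIF1A.

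EGLN3 encodes the prolyl hydroxylase PHD3, an oxygen sensor that HIF itself induces as negative feedback. EGLN3 (ENSG00000129521, chromosome 14, 33924231 to 34462774, minus strand) had 123 and 149 counts in UHRF1 KO and 115 and 117 in control, which is 5.93 and 5.99 CPM against 6.45 and 6.31 CPM. The UHRF1 KO libraries were slightly below the controls, and the difference was within its error (log2 fold change -0.10, SE 0.16, edgeR adjusted p = 0.614). Its annotated span contains SPTSSA on the same strand, with more counts in every library, 4197 and 4959 counts in UHRF1 KO and 2294 and 2522 in control, and reads in shared sequence are uncertain.

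The secreted products VEGFA, ADM and ANGPTL4 all rose, ADM only without recentring of the libraries. VEGFA, the main angiogenic growth factor under HIF control (ENSG00000112715, chromosome 6, 43770184 to 43786487, plus strand), was at 108.1 and 112.3 CPM in UHRF1 KO and at 60.6 and 58.7 CPM in control. All values of UHRF1 KO exceeded all values of control, a 1.85-fold rise with a change of 0.89 on the log2 scale (SE 0.051, edgeR adjusted p = 2.18e-16). ADM encodes adrenomedullin, a vasodilator peptide (ENSG00000148926, chromosome 11, 10304680 to 10307397, plus strand). It was at 74.5 and 78.0 CPM in UHRF1 KO and at 54.9 and 55.6 CPM in control, a 1.38-fold rise (log2 fold change 0.47, SE 0.055, edgeR adjusted p = 7.19e-09). This rise depends on the corrections applied. It was called with DESeq2 size factors (log2 fold change 0.46) and upper-quartile factors (0.49). With trends in GC content and gene length taken out alone it was 0.22 and still called. When trends with GC content and gene length were taken out and each library was recentred on its mean level (the recentred fit), the log2 fold change was -0.08 (edgeR adjusted p = 0.182, the highest of its 15 alternatives, whose lowest was 3.71e-13).

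ANGPTL4 had the largest change of the set. It encodes a secreted inhibitor of lipoprotein lipase that is induced by HIF and also by fatty acids through PPAR receptors (ENSG00000167772, chromosome 19, 8363289 to 8374373, plus strand). Counts were 1547 and 1909 in UHRF1 KO and 214 and 213 in control, which is 74.6 and 76.8 CPM against 12.0 and 11.5 CPM. The groups were separated by many times their spread, a 6.45-fold rise (log2 fold change 2.69, SE 0.075, edgeR adjusted p = 4.09e-25), and 94.5% of all genes tested had a lower log2 fold change. It was 2.11 in the recentred fit and at least 2.41 in every other alternative fit. Per kilobase of annotated exon ANGPTL4 was at 30.5 CPM in UHRF1 KO and 4.73 CPM in control, which ranks it 4 of 10 in UHRF1 KO and 7 of 10 in control.

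BHLHE40 was the other gene that rose at least 2-fold. It encodes a basic helix-loop-helix repressor of the circadian clock, also known as DEC1, that HIF induces (ENSG00000134107, chromosome 3, 4979116 to 4985323, plus strand). It was at 819.4 and 825.1 CPM in UHRF1 KO and at 271.7 and 267.7 CPM in control. The libraries of each group were nearly equal, and the 3.05-fold rise had a change of 1.61 on the log2 scale (SE 0.034, edgeR adjusted p = 1.71e-28), higher than in 90.1% of all genes tested. Per kilobase of annotated exon it was the most abundant of the 10 in UHRF1 KO at 214 CPM, ahead of HIF1A at 137 and EPAS1 at 131. In control it came after HIF1A at 112 and EPAS1 at 95.4, with 70.3 CPM per kilobase.

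NDRG1 is a stress-responsive gene linked to growth arrest and differentiation (ENSG00000104419, chromosome 8, 133237171 to 133302022, minus strand). It was at 94.4 and 90.8 CPM in UHRF1 KO and at 58.4 and 53.3 CPM in control. The groups did not overlap, and the 1.66-fold rise had a change of 0.73 on the log2 scale (SE 0.055, edgeR adjusted p = 2.4e-13). BNIP3, a mitochondrial outer membrane receptor for mitophagy (ENSG00000176171, chromosome 10, 131966455 to 131982013, minus strand), was at 71.4 and 72.3 CPM in UHRF1 KO and at 85.2 and 73.4 CPM in control. One control library was close to the UHRF1 KO libraries. Its log2 fold change was -0.14 (SE 0.058, edgeR adjusted p = 0.036). It was no longer called without control replicate 1 (log2 fold change -0.05, adjusted p = 0.502), without UHRF1 KO replicate 1 (adjusted p = 0.112) and without UHRF1 KO replicate 2 (adjusted p = 0.0809). DESeq2 (adjusted p = 0.147) and limma-voom (adjusted p = 0.0631) did not call it either, and its adjusted p ran from 7.2e-11 to 0.502 over 15 alternatives.

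CA9 encodes carbonic anhydrase IX, a cell-surface enzyme of pH control and one of the most strongly HIF-dependent genes in many tumours. CA9 (ENSG00000107159, chromosome 9, 35673856 to 35681159, plus strand) was close to silent, with 17 and 15 counts in UHRF1 KO and 10 and 12 in control. This is 0.820 and 0.603 CPM against 0.561 and 0.647 CPM, and the groups overlapped. The difference was within its error (log2 fold change 0.22, SE 0.46, edgeR adjusted p = 0.703) and was not detectable at this depth. The log2 fold change turned to -0.39 in the recentred fit and to -0.01 without UHRF1 KO replicate 1. CA9 overlaps ARHGEF39 on the opposite strand, which had 316 and 428 counts in UHRF1 KO and 329 and 283 in control, so even these few counts are uncertain.

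**Figure D3:**
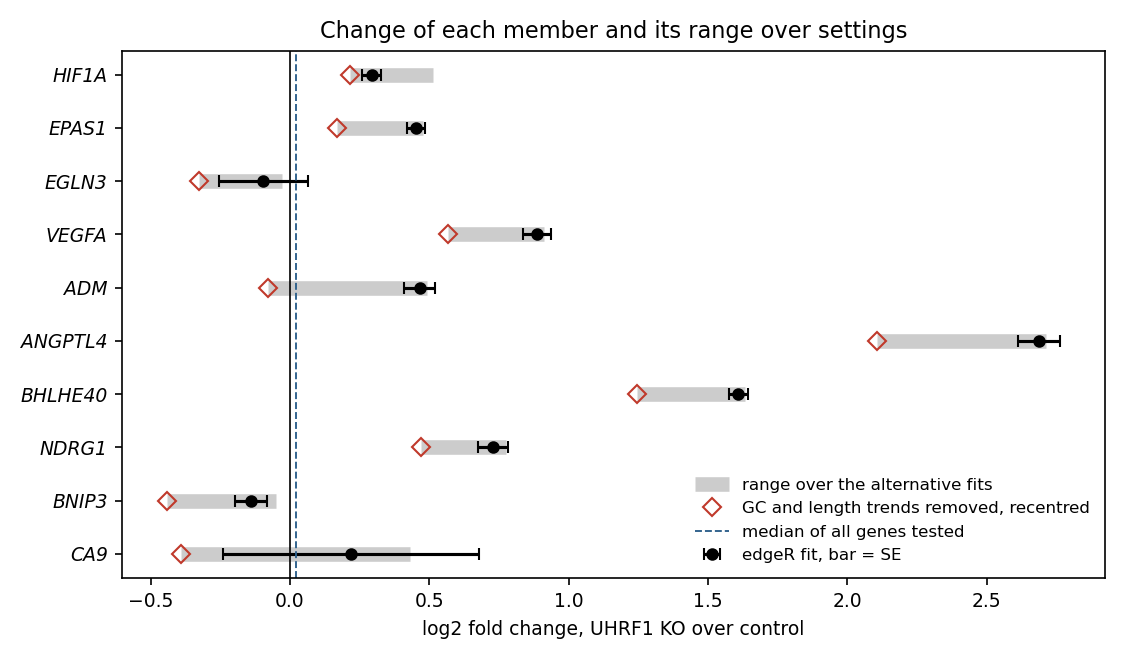
Log2 fold change (UHRF1 KO over control) of each gene with its SE (black), the range over all alternative fits (grey bars) and the value in the recentred fit (diamonds). ANGPTL4 and BHLHE40 stay above 1.24 in every fit, and ADM, EGLN3, BNIP3 and CA9 have diamonds below 0.

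The scaling bears on all small changes. In the recentred fit the median log2 fold change was 0.19 over the 10 genes and -0.23 over all genes tested, against 0.46 and 0.02 in the fit reported here. In that fit 6 of the 10 genes were called higher, which are the 7 above without ADM, where 20.8% of all genes tested were called higher and 48.3% lower, with log2 fold changes from 0.17 for EPAS1 to 2.11 for ANGPTL4.

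Partners and regulators of HIF moved in both directions. Of 15 listed genes 14 were tested, of which 4 rose and 5 fell, with a median of -0.06. Of all genes tested, 32.0% were called higher and 30.1% lower. In the recentred fit 2 rose and 9 fell, where 20.8% of all genes tested were called higher and 48.3% lower. EGLN1, the main oxygen-sensing hydroxylase, was at 172.3 ± 1.02 CPM in UHRF1 KO and 117.5 ± 2.55 CPM in control (log2 fold change 0.55, SE 0.043), and EGLN2 was raised by a log2 fold change of 0.53. CITED2, a HIF-induced protein that competes for the coactivators p300 and CBP, rose by 0.74. The constant partner ARNT rose by 0.31, while its paralog ARNT2 was at 31.2 ± 0.948 CPM in UHRF1 KO and 58.3 ± 1.87 CPM in control, a change of -0.90 on the log2 scale (SE 0.065, edgeR adjusted p = 7.77e-14). RBX1, the RING subunit of the VHL ligase, fell by 0.74, and ELOC, an elongin of the same ligase, fell by 0.42. The coactivator genes EP300 (log2 fold change -0.12, edgeR adjusted p = 0.037) and CREBBP (-0.13, edgeR adjusted p = 0.0195) were called lower by small amounts, and both calls were lost with upper-quartile factors, with DESeq2 and without UHRF1 KO replicate 2. VHL itself did not pass the test (log2 fold change 0.08, edgeR adjusted p = 0.207). The calls of ARNT and EGLN2 were lost in the recentred fit, and that of EGLN2 also with DESeq2. HIF3A, under the filter, had 10 and 13 counts in UHRF1 KO and 0 in both controls.

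Among other HIF targets outside glycolysis, more were called higher than lower. Of 36 listed, 34 were tested, 20 rose and 7 fell, with a median of 0.28, where 32.0% of all genes tested were called higher and 30.1% lower. In the recentred fit 15 rose and 10 fell, where 20.8% of all genes tested were called higher and 48.3% lower. Of the rises, 4 were at least 2-fold, where 15.4% of all genes tested were. EFNA1, an ephrin ligand, was at 129.8 ± 0.46 CPM in UHRF1 KO and 14.7 ± 0.92 CPM in control, a change of 3.15 on the log2 scale (SE 0.064, edgeR adjusted p = 5.9e-29) that exceeded that of ANGPTL4. ITGA5, the alpha subunit of the fibronectin receptor, rose by 1.85. The falls were of PPP1R3C (-0.89), STC2 (-0.52), TFRC (-0.48), VLDLR (-0.38), AK4 (-0.23), FAM162A (-0.23) and JMJD6 (-0.16) on the log2 scale. The calls of VLDLR, AK4 and FAM162A were lost with the trends removed and no recentring, those of AK4, FAM162A and JMJD6 with DESeq2, and without UHRF1 KO replicate 1 the list had 4 falls.

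Genes of glucose uptake and glycolysis also moved both ways. Of 22 tested, 11 rose and 10 fell, with a median of 0.16, where 32.0% of all genes tested rose and 30.1% fell. In the recentred fit 7 rose and 11 fell, where 20.8% of all genes tested rose and 48.3% fell. The glucose transporter SLC2A3 was at 111.9 ± 1.70 CPM in UHRF1 KO and 33.5 ± 0.472 CPM in control (log2 fold change 1.74, SE 0.056). The lactate exporter SLC16A3 rose by 1.18 and hexokinase HK1 by 0.98. All 10 falls were small, from -0.53 for ENO1 and -0.50 for GPI to -0.21 for PGK1 and -0.16 for PFKFB3, with GAPDH at -0.42, PFKL at -0.37, TPI1 at -0.32, PGAM1 at -0.30, PKM at -0.28 and PFKM at -0.28 between them. GAPDH was at 2594 CPM in UHRF1 KO and 3476 CPM in control. Several of these enzymes, GAPDH and PGAM1 among them, have processed pseudogenes with near-identical sequence, so their counts are uncertain where the counting could split reads. The PGK1 call was lost with the trends removed and no recentring.

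**Figure D4:**
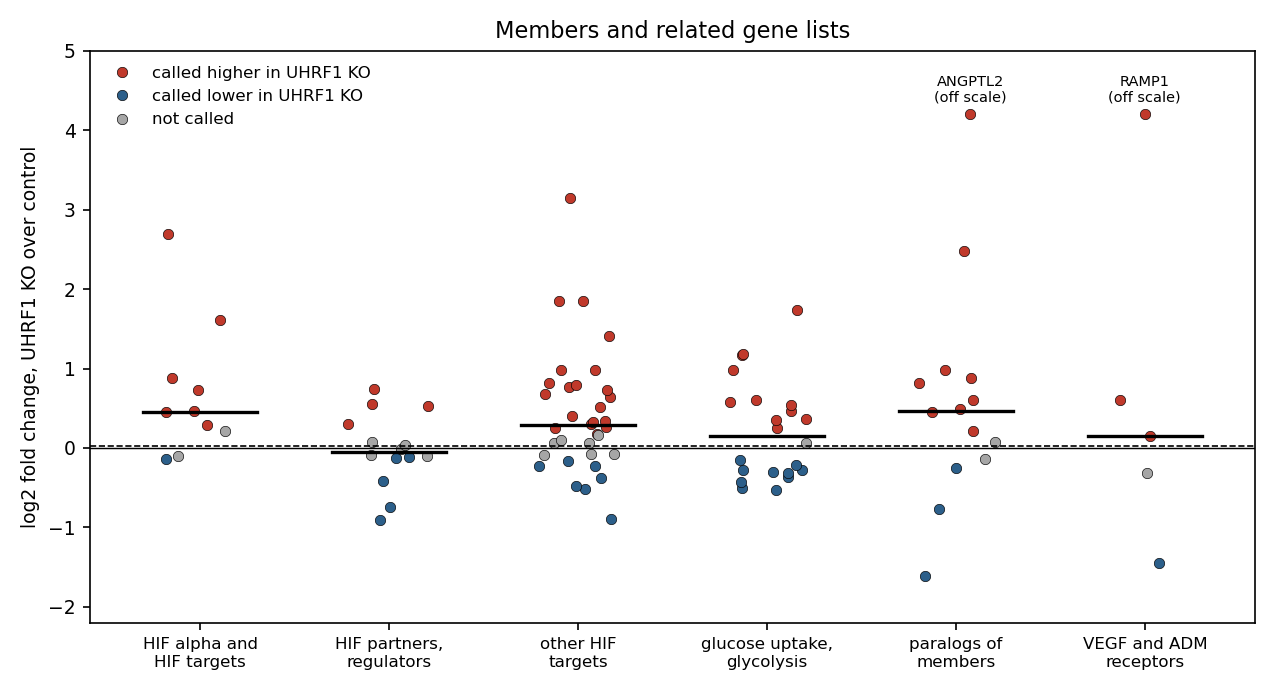
Log2 fold change (UHRF1 KO over control) of each tested gene in the 10-gene set and 5 related lists, coloured by call, with a bar at each list's median and a dashed line at the median of all genes tested. Points for ANGPTL2 and RAMP1, which had 1 and 0 counts over both controls, are drawn near the top, marked as off scale, and not at their fitted value.

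Paralogs of the 10 genes were listed as well. Of 21 paralogs 14 were tested, 9 rose and 3 fell, where 32.0% of all genes tested rose and 30.1% fell. In the recentred fit 4 rose and 5 fell, where 20.8% of all genes tested rose and 48.3% fell. ANGPTL2 had 153 and 231 counts in UHRF1 KO and 0 and 1 in control. It passed the filter on low counts only through UHRF1 KO, so among the 9 rises it could only be called higher. PGF, a VEGF-family ligand, rose to 6.44 ± 1.19 CPM in UHRF1 KO, against 1.16 ± 0.188 CPM in control (log2 fold change 2.48, SE 0.24). NDRG4 rose by 0.82 while NDRG2 fell by 0.76 and NDRG3 by 0.25, and the carbonic anhydrase-related gene CA11 fell by 1.61 on the log2 scale. The NDRG2 call was lost with DESeq2.

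Receptors and co-receptors for VEGF and adrenomedullin differed widely in level, and several had few or no counts. Of 10 listed, 5 were tested, of which 3 rose and 1 fell, where 32.0% of all genes tested rose and 30.1% fell. The rises include RAMP1, which passed the filter on low counts only through UHRF1 KO and so could only be called higher. In the recentred fit 2 rose and 2 fell, where 20.8% of all genes tested rose and 48.3% fell. The VEGF receptor gene KDR had 4 and 2 counts in UHRF1 KO and 2 and 2 in control, and FLT1 had 3 and 0 in UHRF1 KO and 0 in both controls. The receptor gene FLT4 had more, 68 and 84 counts in UHRF1 KO and 76 and 75 in control. It did not pass the test (log2 fold change -0.32, edgeR adjusted p = 0.172) and was at -0.73 in the recentred fit. The co-receptor NRP1 was at 420.5 CPM in UHRF1 KO and 379.3 CPM in control (log2 fold change 0.15), a call lost in the recentred fit and without UHRF1 KO replicate 1. The co-receptor NRP2 was at 130.4 ± 1.69 CPM in UHRF1 KO and 85.5 ± 2.59 CPM in control (log2 fold change 0.61, SE 0.047). RAMP1, which pairs with the calcitonin receptor-like receptor, had 65 and 77 counts in UHRF1 KO and 0 in both controls. This is at least 37.8-fold higher against a floor of 3 counts over both control libraries. CALCRL, which encodes that receptor, had 20 and 11 counts in UHRF1 KO and 2 and 5 in control. RAMP2 had 1 and 5 counts in UHRF1 KO and 5 and 3 in control. RAMP3 had 0 and 1 in UHRF1 KO and 0 in both controls. CALCRL, RAMP2 and RAMP3 were under the filter and not tested. ACKR3, an atypical chemokine receptor that also binds adrenomedullin, fell by 1.45 on the log2 scale (SE 0.25, edgeR adjusted p = 6.3e-06).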

How the data were processed

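Read counts per gene were deposited by the authors as whole numbers without normalization, for 2 UHRF1 KO and 2 control libraries of A549. FastQC 0.10.1 and the build GRCh38 come from the submitters' processing notes, and the sources used here do not give the aligner, counting tool, strand setting or treatment of multi-mapping reads. All 58735 identifiers matched GENCODE release 29. Columns were matched to samples by name, and the control columns by the replicate number of the titles, since both controls carry the same short description.

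The counts entered edgeR 4.0.16 (R 4.3.3), with filterByExpr (17030 genes kept), TMM, and the quasi-likelihood test with robust moderation, two-sided. Benjamini-Hochberg adjustment covered all genes tested and calls were made under 0.05. SEs are approximate (size of the log2 fold change divided by the root of F). The step was tested on simulated data. Replicates differed by more than counting noise (chi-square per degree of freedom 1.85 in UHRF1 KO and 2.65 in control) and were kept apart. Floors cover counting error only, while the SEs also take in the scatter between libraries. Alternatives were run with limma 3.58.1, DESeq2 1.42.0 and mgcv 1.9.3 (GC content and length trends, values for 99.9% of genes). The members and lists were chosen with earlier results of these data known. Named genes were UHRF1, all members, and from each related list the up to 3 called genes with the smallest adjusted p and any called gene against the direction of most; other list genes were named after their values were seen, and 1 gene that the rule names is not reported here. HIF core motifs were searched in RefSeq promoter windows.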

Additional observations from a re-analysis of the deposited data

How the results depend on the processing

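Of 15 counts and medians under 15 alternatives, 187 of 225 values stayed near the reported value and 38 moved. Near meant within 1.5 times the reported count, or for the members' median a shift no larger than the median SE of single members. The 7 rises among the 10 genes were 7 in every alternative except 6 in the recentred fit and 2 at a 2-fold minimum. The 1 fall (BNIP3) became 0 with upper-quartile factors, a minimum of 1 CPM in 2 libraries, DESeq2, limma-voom, an adjusted p under 0.01 and the 2-fold minimum. With a 2-fold minimum, all genes numbered 2616 higher and 432 lower, regulators 0 and 0, other targets 4 and 0, glycolysis 3 and 0, paralogs 2 and 1, and receptors 1 higher. In the recentred fit, all genes numbered 3545 higher and 8222 lower (a higher share of 30.1%, against 51.5% without), the members' median was 0.193, regulators were 2 and 9, glycolysis had 7 higher, paralogs were 4 and 5, and receptors had 2 lower. With the trends removed alone, other targets had 4 lower. Regulators had 3 lower with upper-quartile factors, DESeq2 and an adjusted p under 0.01, other targets had 4 lower at that threshold, and paralogs had 5 higher with DESeq2. Leaving out each library gave 0 to 1 fall among the members, 3 to 6 among regulators (3 without UHRF1 KO replicate 2) and 4 to 8 among other targets. CA9, not called, turned to -0.097 with trends removed, -0.393 with recentring and, leaving out each library, ran from -0.009 (without UHRF1 KO replicate 1) to 0.431, and ADM to -0.079 with recentring. The cause was not tested.

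With the replicate number as a block, 5280 genes were higher and 4986 lower, and 7 members rose and 1 fell. Deviations of same-numbered libraries correlated at -0.014 over 17030 genes, which gives no sign of a pairing by number. With so few libraries it cannot show whether they shared a batch, and the control numbers come from the titles alone. With 2 libraries a group an exact permutation test cannot go below p = 0.333. Depth limits CA9, where 3 counts are 0.121 to 0.168 CPM.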
